A study of Saccharomyces cerevisiae with 15 samples.

Results

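The yeast hexose transporter genes HXT1 to HXT7 and the glucose sensor genes SNF3 and RGT2 were followed in 5 strains of Saccharomyces cerevisiae. Members were the probe sets of the array whose gene symbol was one of these 9 names, and 8 of the 9 genes had one, each with a single probe set, among 5449 genes measured in all. HXT6 had no probe set under its own symbol. The HXT7 probe set carries the suffix that the manufacturer gives to probes shared by several transcripts, and HXT7 and HXT6 are near-identical neighbouring genes, so the value given here for HXT7 cannot be assigned to one of the pair. HXT7, HXT6, HXT3, SNF3 and RGT2 lie on chromosome IV, HXT4, HXT1 and HXT5 lie in a row on chromosome VIII with AHT1 between HXT4 and HXT1, and HXT2 lies on chromosome XIII.

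Yeast takes up glucose by facilitated diffusion through a family of plasma membrane carriers that differ in affinity. Hxt1 and Hxt3 are low-affinity carriers used when glucose is plentiful, Hxt2, Hxt4, Hxt6 and Hxt7 serve at lower glucose, and Hxt5 is a carrier of slowly growing or starved cells. Snf3 and Rgt2 look like transporters but act as receptors. When glucose is bound they trigger the loss of the corepressors Mth1 and Std1, which frees HXT promoters from the repressor Rgt1. In high glucose the repressor Mig1 shuts off high-affinity carriers and other genes, and the Snf1 kinase relieves this repression when glucose is low.

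Total RNA was taken from cells in mid-log growth in YPD, a rich medium with glucose, and each strain was measured on 3 arrays. The 3 mutants lacked a gene of the THSC/TREX-2 complex, a nuclear pore-associated complex of mRNA biogenesis and export. The thp1∆ strain (Y11764, thp1::KanMX) and the sus1∆ strain (Y17455, sus1::KanMX) were set against BY4742, and the sac3∆ strain (Y03517, sac3::KanMX) against BY4741. All strains carried ura3∆0, leu2∆0 and his3∆1, with lys2∆0 in BY4742, thp1∆ and sus1∆ and met15∆0 in BY4741 and sac3∆. Each mutant was represented by 1 strain. Sus1 is also a subunit of the SAGA coactivator. The arrays are called biological replicates in the labels without a statement that they came from separate cultures, so the p-values measure only the spread between these arrays.

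Array medians lay between 1260 and 1460 arbitrary units (a.u.), and empty cells numbered 0 to 22 per array except in BY4741 replicate 3, which had 862. Each deleted gene was near background in its own mutant: THP1 averaged 16.1 ± 3.34 a.u. in thp1∆ and 1403 ± 62.5 a.u. in BY4742, SAC3 15.9 ± 0.79 a.u. in sac3∆ and 1412 ± 158 a.u. in BY4741, and SUS1 21.1 ± 1.91 a.u. in sus1∆ and 854 ± 117 a.u. in BY4742 (SD, n = 3 each). The labels give MATa for every strain, but 7 of 8 genes specific to a cells had lower means in thp1∆, sus1∆ and BY4742 than in sac3∆ and BY4741, and STE3, the a-factor receptor gene of α cells, was high in the first group of strains. A comparison of BY4742 with BY4741 therefore also compares mating types.

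No transporter or sensor gene that could be tested passed the criteria for change in any mutant, and HXT5 was too low to be tested. The criteria were an adjusted p below 0.05 (limma, Benjamini-Hochberg over all genes tested), a fold of at least 1.5 and a difference of means over 100 a.u., after removal of genes under 600 a.u. in at least 50% of the arrays compared. In each comparison 7 members were tested and 0 were called, whereas 21.1% of all tested genes were called in thp1∆, 12.1% in sac3∆ and 4.86% in sus1∆. These calls were 631 genes higher and 261 lower in thp1∆, 381 and 140 in sac3∆, and 149 and 60 in sus1∆. With the array medians made equal, which shifted the median gene by -0.12, -0.12 and -0.08 on the log2 scale in the same comparisons, they were 477 and 444, 272 and 245, and 100 and 90. At an unadjusted p under 0.05 (limma), 1 member in thp1∆, 3 in sac3∆ and 4 in sus1∆ differed from wild type. Over all genes, those at that p were 2774 of 4231 tested in thp1∆, 2314 of 4308 in sac3∆ and 1689 of 4304 in sus1∆. The median absolute log2 fold change of the 7 members was 0.11 in thp1∆, 0.09 in sac3∆ and 0.19 in sus1∆, beside 0.30, 0.21 and 0.15 over all genes tested in the same comparisons. With each comparison fitted to its own 6 arrays alone, the adjusted p was under 0.05 for HXT3 (0.00332), HXT2 (0.00172) and HXT4 (0.0263) in thp1∆. In sac3∆ it was so for HXT1 (0.0419), while that of RGT2 was 0.186. In sus1∆ it was so for HXT1 (0.021), HXT3 (0.000464), HXT4 (0.0231), HXT7 (0.0488) and SNF3 (0.0286). In these fits 0 of the 7 members tested reached the fold minimum. In the fit to all arrays, 61.8%, 44.7% and 29.4% of tested genes had an adjusted p under 0.05 in thp1∆, sac3∆ and sus1∆. That share was not counted in the fits to 6 arrays. For 5 of the 7 members in each mutant, the 95% interval of the fold change lay within 1.5-fold either way. These intervals use 1 spread per gene shared by all strains, whereas the median SD of log2 values was 0.14 in BY4741 and 0.05 in BY4742. In sac3∆ the HXT7 interval ended at the limit (1.5-fold after rounding). Fitted to 6 arrays, the sac3∆ SE was 0.28 for HXT2 and 0.26 for HXT7, against 0.20 and 0.23 with all arrays. Arrays of mutant and wild type did not overlap for 5 of 8 members in thp1∆, 2 in sac3∆ and 5 in sus1∆, a state reached by 76.4%, 45.5% and 64.9% of all genes. In a bulk culture, fewer expressing cells and less RNA per cell cannot be told apart.

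**Figure D1:**
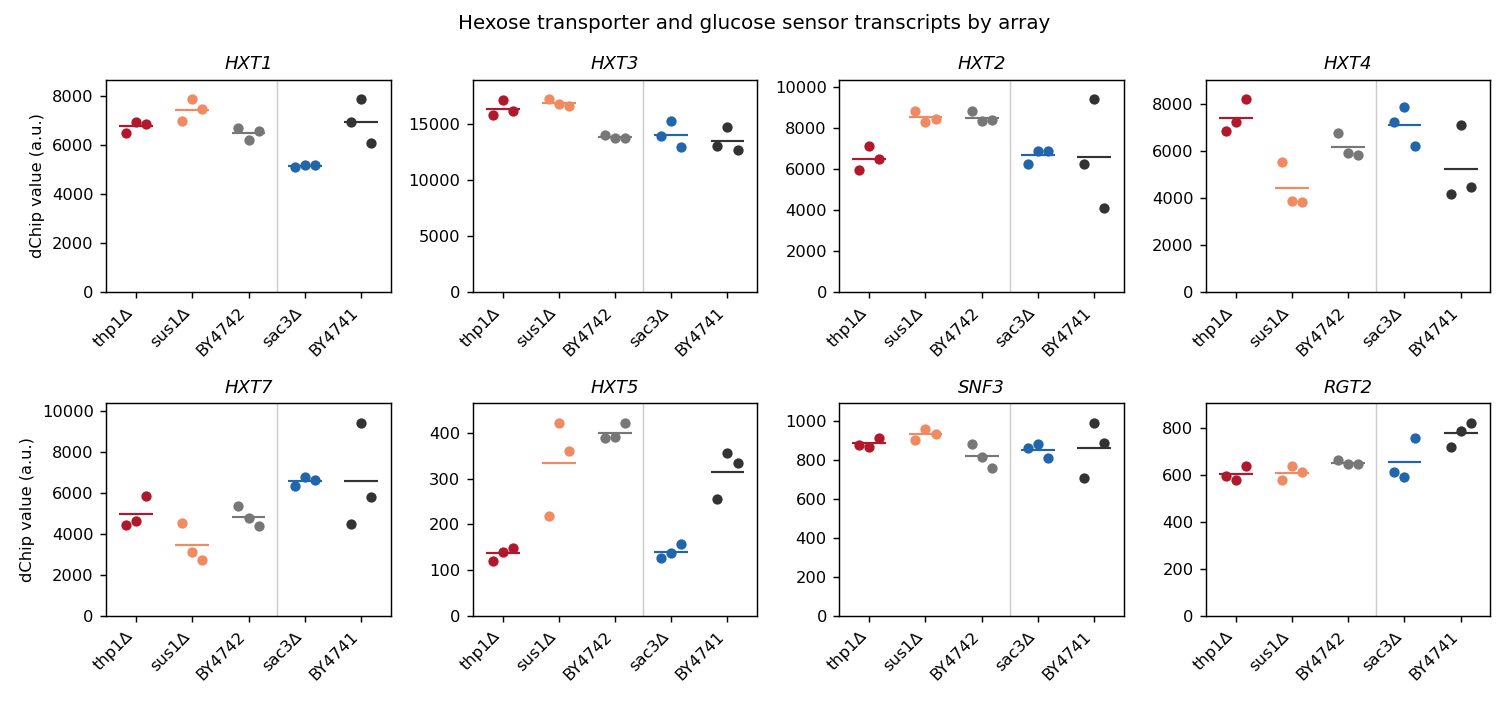
Values of the 8 measured genes on each of the 15 arrays (vertical axes from 0, dChip expression value in a.u.), with thp1∆ and sus1∆ left of their wild type BY4742, and sac3∆ left of BY4741; points are arrays and bars are strain means (n = 3). HXT5 was between 121 and 158 a.u. on every thp1∆ and sac3∆ array and between 218 and 422 a.u. on all others, while HXT2, HXT4 and HXT7 spread widely within BY4741.

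HXT3, which encodes a low-affinity carrier, was slightly higher in thp1∆ and sus1∆. It gave 15784, 17120 and 16121 a.u. in thp1∆ and 17216, 16774 and 16556 a.u. in sus1∆, against 13998, 13713 and 13771 a.u. in BY4742. All mutant arrays lay above all 3 wild-type arrays. The log2 fold change was 0.24 ± 0.07 in thp1∆ (limma adjusted p = 0.0102) and 0.29 ± 0.07 in sus1∆ (SE, adjusted p = 0.00956), a 1.18-fold and a 1.22-fold difference, both short of the fold minimum. With the array medians made equal, the HXT3 difference in thp1∆ was 0.12 (adjusted p = 0.113). In sac3∆ the gene gave 13921, 15299 and 12941 a.u., against 13057, 14745 and 12646 a.u. in BY4741, and these ranges overlapped (log2 fold change 0.06 ± 0.07).

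HXT1, the other low-affinity carrier gene, was lower in sac3∆ by an amount short of the fold minimum. Its values were 5087, 5199 and 5195 a.u. in sac3∆, against 6934, 7865 and 6066 a.u. in BY4741. Every sac3∆ array was below every BY4741 array, and the sac3∆ arrays were also below those of the other three strains. The log2 fold change was -0.42 ± 0.08 (limma adjusted p = 0.00112, 1.34-fold lower), with a 95% interval from -0.60 to -0.24. HXT1 gave 6472, 6954 and 6859 a.u. in thp1∆ and 6967, 7869 and 7455 a.u. in sus1∆, against 6688, 6189 and 6588 a.u. in BY4742. The thp1∆ range overlapped that of BY4742 (log2 fold change 0.06 ± 0.08), and the sus1∆ range lay just above it (0.19 ± 0.08, adjusted p = 0.0959).

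HXT2, a carrier gene induced by low glucose, was at 5944, 7099 and 6491 a.u. in thp1∆ and at 8800, 8297 and 8456 a.u. in sus1∆, against 8803, 8315 and 8371 a.u. in BY4742. The thp1∆ arrays were all below the wild type, whereas those of sus1∆ covered nearly the same range as BY4742. The log2 fold change in thp1∆ was -0.39 ± 0.20 (limma adjusted p = 0.112), with a 95% interval from -0.82 to 0.05, and that in sus1∆ was 0.00 ± 0.20. With equal array medians the thp1∆ difference was -0.51 ± 0.19 (adjusted p = 0.0292), and fitted to the arrays compared alone it was -0.39 ± 0.07 (adjusted p = 0.00172), both short of the fold minimum. In sac3∆ the values were 6267, 6869 and 6855 a.u., against 6241, 9405 and 4128 a.u. in BY4741. The sac3∆ values fell inside the range of BY4741, whose highest array exceeded its lowest 2.28-fold.

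HXT4, which encodes a carrier of intermediate affinity, had its highest mean in thp1∆ and its lowest in sus1∆. It gave 6859, 7229 and 8226 a.u. in thp1∆ and 5546, 3895 and 3850 a.u. in sus1∆, against 6799, 5941 and 5835 a.u. in BY4742. All thp1∆ arrays were above BY4742 and all sus1∆ arrays below it, with log2 fold changes of 0.26 ± 0.19 (limma adjusted p = 0.239) and -0.50 ± 0.19 (adjusted p = 0.0639). In sac3∆ it gave 7232, 7877 and 6244 a.u., against 4176, 7141 and 4475 a.u. in BY4741, ranges that overlapped through BY4741 replicate 2 (0.47 ± 0.19, adjusted p = 0.0579). With equal array medians the sus1∆ difference was -0.58 (adjusted p = 0.0277), just short of the fold minimum. Each near-miss turned on a different single array. Without BY4741 replicate 2 the sac3∆ difference was 0.71 (adjusted p = 0.00244), and without sus1∆ replicate 1 the sus1∆ difference was -0.67 (adjusted p = 0.0238), both past all criteria. Leaving out each array in turn, the difference lay between 0.33 and 0.71 in sac3∆ and between -0.67 and -0.41 in sus1∆.

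The HXT7 probe set, which reports a high-affinity carrier, gave 4462, 4623 and 5855 a.u. in thp1∆ and 4554, 3144 and 2728 a.u. in sus1∆, against 5382, 4808 and 4373 a.u. in BY4742. Both mutant ranges overlapped that of the wild type, with 2 of the 3 sus1∆ arrays below it. The log2 fold change was 0.03 ± 0.23 in thp1∆ and -0.51 ± 0.23 in sus1∆ (limma adjusted p = 0.124) in the full set of arrays. Without sus1∆ replicate 1 the sus1∆ value became -0.72 (adjusted p = 0.0437), past all criteria. Leaving out each array in turn, the sus1∆ value lay between -0.72 and -0.35. In sac3∆ the values were 6342, 6809 and 6644 a.u., against 4469, 9431 and 5803 a.u. in BY4741 (0.08 ± 0.23). The sac3∆ arrays lay close together inside the wide range of BY4741.

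HXT5 showed the widest separation of strains among the members. It gave 121, 141 and 149 a.u. in thp1∆ and 218, 421 and 361 a.u. in sus1∆, against 388, 392 and 422 a.u. in BY4742. In sac3∆ it gave 126, 138 and 158 a.u., against 256, 356 and 335 a.u. in BY4741. The thp1∆ and sac3∆ arrays were below every array of the other strains, and those of sus1∆ overlapped both wild types. As all these values were below 600 a.u., the gene was removed by the filter and has no test under the criteria.

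Fitted without the filter, the log2 fold change of HXT5 was -1.55 ± 0.20 in thp1∆ (2.94-fold lower, limma adjusted p = 2.21e-05) and -1.16 ± 0.20 in sac3∆ (2.23-fold lower, adjusted p = 0.000483). In sus1∆ it was -0.32 ± 0.20 (adjusted p = 0.263). In that fit 7.61% of all genes were called lower in thp1∆ and 4.5% in sac3∆. RNA quality moved with the same strains: the ratio of 3′ to 5′ control probe sets had a higher mean than wild type in thp1∆ and in sac3∆ for 6 of 6 control genes, and for 5 of 6 in sus1∆. For SRB4, the control with the widest gap, it averaged 12.5 ± 5.95 in thp1∆ and 4.92 ± 0.29 in sus1∆, against 4.40 ± 0.20 in BY4742, and 10.4 ± 1.76 in sac3∆, against 6.50 ± 0.47 in BY4741 (SD, n = 3). The part of these ratios in the HXT5 values was not tested.

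The sensor genes varied little. SNF3, the receptor gene for low glucose, gave 878, 867 and 917 a.u. in thp1∆ and 906, 963 and 938 a.u. in sus1∆, against 884, 818 and 763 a.u. in BY4742, and 864, 882 and 813 a.u. in sac3∆, against 709, 993 and 887 a.u. in BY4741. Only the sus1∆ arrays were all above their wild type, and the largest SNF3 log2 fold change of the mutants was 0.19 ± 0.10 in sus1∆ (limma adjusted p = 0.177). The 95% intervals of SNF3 ran from -0.10 to 0.33 in thp1∆, from -0.22 to 0.21 in sac3∆ and from -0.03 to 0.41 in sus1∆.

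RGT2, the receptor gene for high glucose, gave 595, 576 and 636 a.u. in thp1∆ and 576, 637 and 611 a.u. in sus1∆, against 662, 645 and 644 a.u. in BY4742. Both mutants lay wholly below BY4742, by log2 fold changes of -0.11 ± 0.09 and -0.10 ± 0.09 (limma adjusted p = 0.279 and 0.444). In sac3∆ it gave 613, 590 and 758 a.u., against 719, 787 and 820 a.u. in BY4741 (-0.25 ± 0.09, adjusted p = 0.0311). The sac3∆ and BY4741 ranges overlapped, and the difference of 1.19-fold was below the fold minimum.

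**Figure D2:**
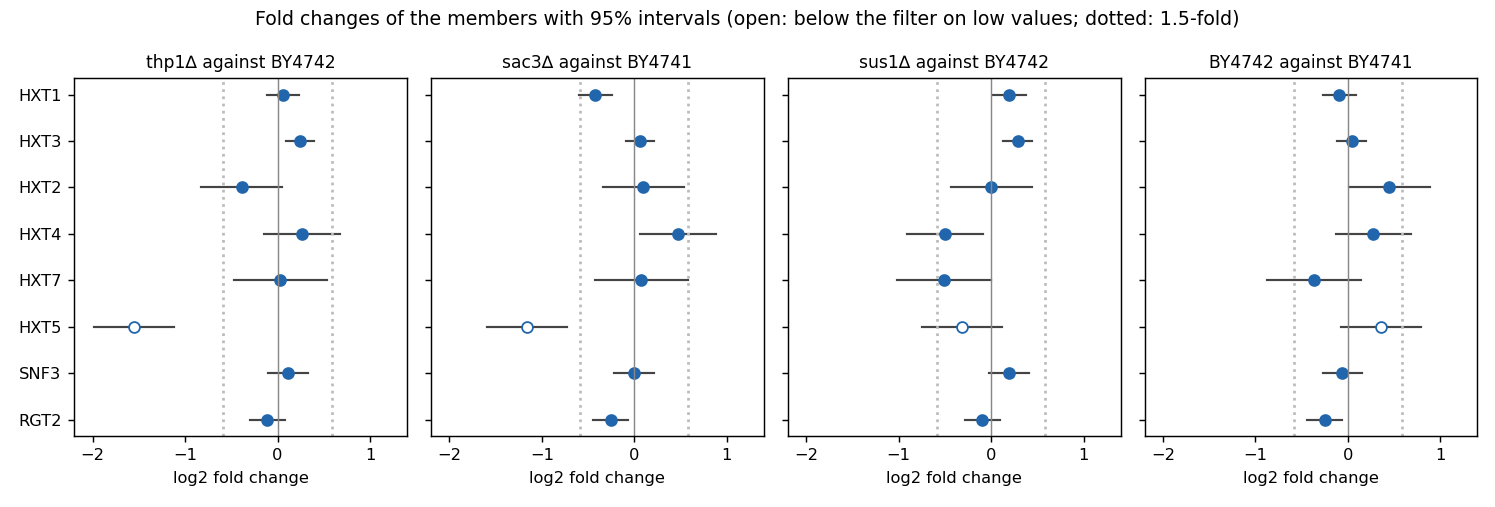
Log2 fold change (horizontal axis) of each gene in thp1∆ against BY4742, sac3∆ against BY4741, sus1∆ against BY4742 and BY4742 against BY4741, with 95% intervals from limma; dotted lines mark the 1.5-fold minimum and open circles a gene below the filter on low values. Only HXT5, at -1.55 in thp1∆ and -1.16 in sac3∆, had an interval wholly beyond the 1.5-fold line.

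The wild types differed from each other at 0 of the 7 members tested, where 1.1% of all genes were called. Unadjusted p was under 0.05 for 2 members, HXT2 (log2 fold change of BY4742 over BY4741 0.45 ± 0.20, limma adjusted p = 0.234) and RGT2 (-0.25 ± 0.09, adjusted p = 0.13). Over all genes it was under 0.05 for 875 of 4291 tested. HXT2 became 0.74 (adjusted p = 0.00606) and passed the criteria without BY4741 replicate 2. Leaving out each array in turn, it lay between 0.15 and 0.74. Arrays of the wild types did not overlap for HXT5 (higher in BY4742) and RGT2 (lower in BY4742), that is 2 of 8 members, where 28.5% of all genes were apart.

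Whether a member responded differently in 2 mutants was tested on the difference of their fold changes. HXT1 and HXT4, 2 of the 7 members tested, differed between sus1∆ and sac3∆, where 14.6% of all genes did. For HXT1 the sus1∆ response exceeded that of sac3∆ by 0.62 ± 0.12 on the log2 scale (limma adjusted p = 0.00178), just past the fold minimum, and it was below that minimum without BY4741 replicate 2 (0.52), BY4742 replicate 2 (0.58) or sus1∆ replicate 2 (0.57). For HXT4 the sus1∆ response was lower than that of sac3∆ by a log2 difference of -0.97 ± 0.27 (adjusted p = 0.0143), and it passed the criteria without any single array, between -1.21 and -0.83.

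Between thp1∆ and sac3∆, 0 of 7 members differed by the criteria, where 6.95% of all genes did. At an unadjusted p under 0.05, 1577 of 4329 genes tested and 1 member differed. That member was HXT1, whose thp1∆ response exceeded that of sac3∆ by 0.48 ± 0.12 (limma adjusted p = 0.0134), below the fold minimum. HXT2 gave -0.48 ± 0.29 (adjusted p = 0.247), and -0.78 (adjusted p = 0.0117) without BY4741 replicate 2. Leaving out each array in turn, the HXT2 value lay between -0.78 and -0.18. The mutants share no arrays in these 2 contrasts, and each includes the difference between the wild types.

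The thp1∆ and sus1∆ strains share BY4742 and could be compared directly. HXT4 was higher in thp1∆ than in sus1∆ by 0.76 ± 0.19 on the log2 scale (1.70-fold, limma adjusted p = 0.00414), the 1 member called of 6 tested, where 17.4% of all genes were called. All 3 thp1∆ arrays of HXT4 were above all 3 of sus1∆. HXT7 gave 0.54 ± 0.23 (adjusted p = 0.0662), and 0.76 (adjusted p = 0.0194) without sus1∆ replicate 1. Leaving out each array in turn, the HXT7 difference lay between 0.39 and 0.76. RGT2 was removed by the filter here, and HXT5, also under it, was lower in thp1∆ by a log2 difference of -1.24 ± 0.20 in the fit without the filter (adjusted p = 0.000181).

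HXT4 and HXT7 were among the genes that varied most between arrays of 1 strain. In sus1∆ the SD of the log2 values was 0.30 for HXT4, 0.38 for HXT7 and 0.50 for HXT5, above that of 99.6%, 99.8% and 99.9% of genes in that strain. In BY4741 it was 0.59 for HXT2 and 0.55 for HXT7, above 98.1% and 97.4% of genes. HXT7 was also above 97.8% of genes in BY4742 and 97% in thp1∆, but above only 19.9% in sac3∆, and HXT4 was above 74.5% or more in every strain. The SD of HXT1 ranked above 3% of genes in sac3∆ and up to 83.1% in sus1∆, and that of HXT3 above 8.3% in BY4742 and up to 57.6% in sac3∆.

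HXT4 and HXT7 peaked on the same array in all 5 strains, namely thp1∆ replicate 3, sus1∆ replicate 1, BY4742 replicate 1, sac3∆ replicate 2 and BY4741 replicate 2. Of 3720 other genes with a mean of at least 600 a.u. and a value on every array, 88 (2.37%), HXT4 among them, shared these 5 arrays with HXT7. HXT3, HXT2 and SNF3 each peaked on the same array as HXT7 in 4 of the 5 strains. HXT5 went the other way in sus1∆, where the array highest in HXT4 and HXT7 was the lowest in HXT5 (218 a.u., against 421 and 361 a.u. on the other two). Replicates have no order. The 3′ to 5′ ratio of SRB4 was 19.3 on thp1∆ replicate 3, against 8.84 and 9.21 on the other thp1∆ arrays. On the array where HXT4 and HXT7 peaked it was also the highest of its strain in BY4742 (4.63). It was the lowest of its strain there in sus1∆ (4.59), sac3∆ (8.49) and BY4741 (6.09). What set the peak arrays apart was not tested. Many genes described below were also highest on BY4741 replicate 2 within that strain, among them MTH1, HXK1, CIT2, GLK1 and HXK2. STD1, GRR1 and ATO3 were highest on BY4741 replicate 1, and RGT1 and MIG3 on BY4741 replicate 3. The share of all genes highest on BY4741 replicate 2 was not counted.

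**Figure D3:**
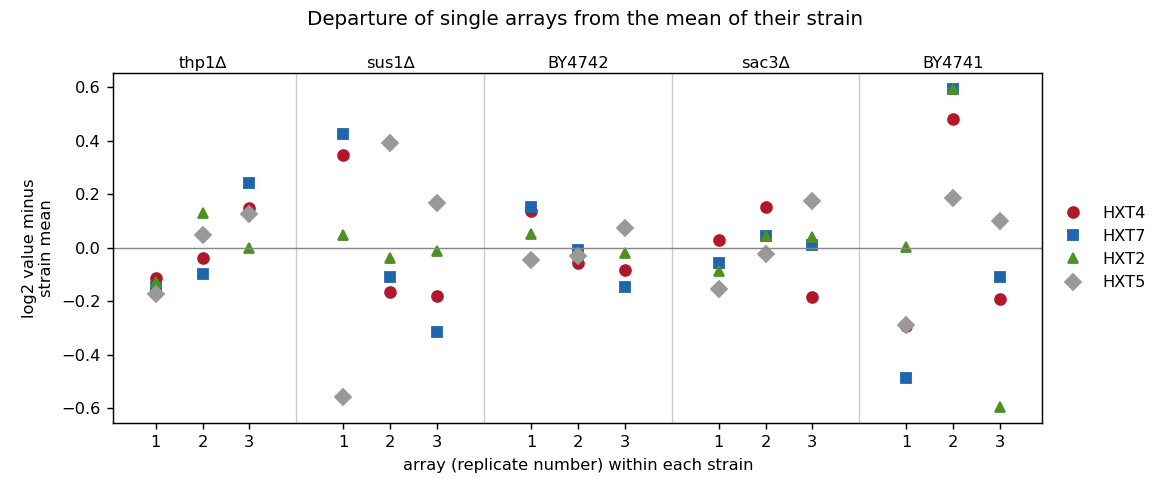
Departure of each array from the mean of its strain (vertical axis, log2 scale) for HXT4, HXT7, HXT2 and HXT5, with arrays named by replicate number under each strain. HXT4 and HXT7 were together on the high side in sus1∆ replicate 1 and, with HXT2, in BY4741 replicate 2, and HXT5 was low in sus1∆ replicate 1.

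Of 10 genes that relay the glucose signal to HXT promoters, 3 rose and 0 fell in thp1∆. In sac3∆ 1 rose (STD1) and 0 fell, and 0 were called in sus1∆. Over all tested genes 14.9%, 8.84% and 3.46% rose in thp1∆, sac3∆ and sus1∆, so the sac3∆ count was near the share of all genes. The median log2 fold change of the list was 0.17, 0.05 and 0.01 in thp1∆, sac3∆ and sus1∆, beside 0.06, 0.06 and 0.03 over all genes tested. The genes that rose were STD1, MTH1 and GRR1, the last of which encodes the F-box protein of the ubiquitin ligase that marks Mth1 and Std1 for degradation.

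STD1, one of the Rgt1 corepressors, gave 3541, 3954 and 3838 a.u. in thp1∆, against 2190, 2224 and 2130 a.u. in BY4742, and 4059, 4851 and 2875 a.u. in sac3∆, against 2314, 2092 and 1971 a.u. in BY4741. Every array of these mutants was above its wild type, and STD1 rose by 0.79 ± 0.14 in thp1∆ (limma adjusted p = 0.000298) and by 0.86 ± 0.14 in sac3∆ (adjusted p = 0.000329) on the log2 scale. In sus1∆ it gave 2078, 1958 and 1983 a.u., a log2 fold change of -0.12 ± 0.14. MTH1, the other corepressor gene, gave 2408, 2536 and 2374 a.u. in thp1∆, against 1391, 1398 and 1132 a.u. in BY4742, and rose by 0.91 ± 0.26 (adjusted p = 0.00904). Its log2 fold change was 0.04 ± 0.26 in sac3∆ and 0.49 ± 0.26 in sus1∆ (adjusted p = 0.186), and BY4741 ranged from 1178 to 2996 a.u.

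GRR1 gave 2373, 2663 and 2439 a.u. in thp1∆, against 1593, 1568 and 1660 a.u. in BY4742, and rose by 0.63 ± 0.07 on the log2 scale (limma adjusted p = 1.01e-05). It dropped below the fold minimum with equal array medians (0.51), with quantile normalisation (0.54) and without thp1∆ replicate 2 (0.58). RGT1, the gene of the DNA-binding repressor, was not called: its log2 fold change was 0.03 ± 0.06 in thp1∆, -0.26 ± 0.06 in sac3∆ (adjusted p = 0.00569) and -0.20 ± 0.06 in sus1∆ (adjusted p = 0.0328).

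**Figure D4:**
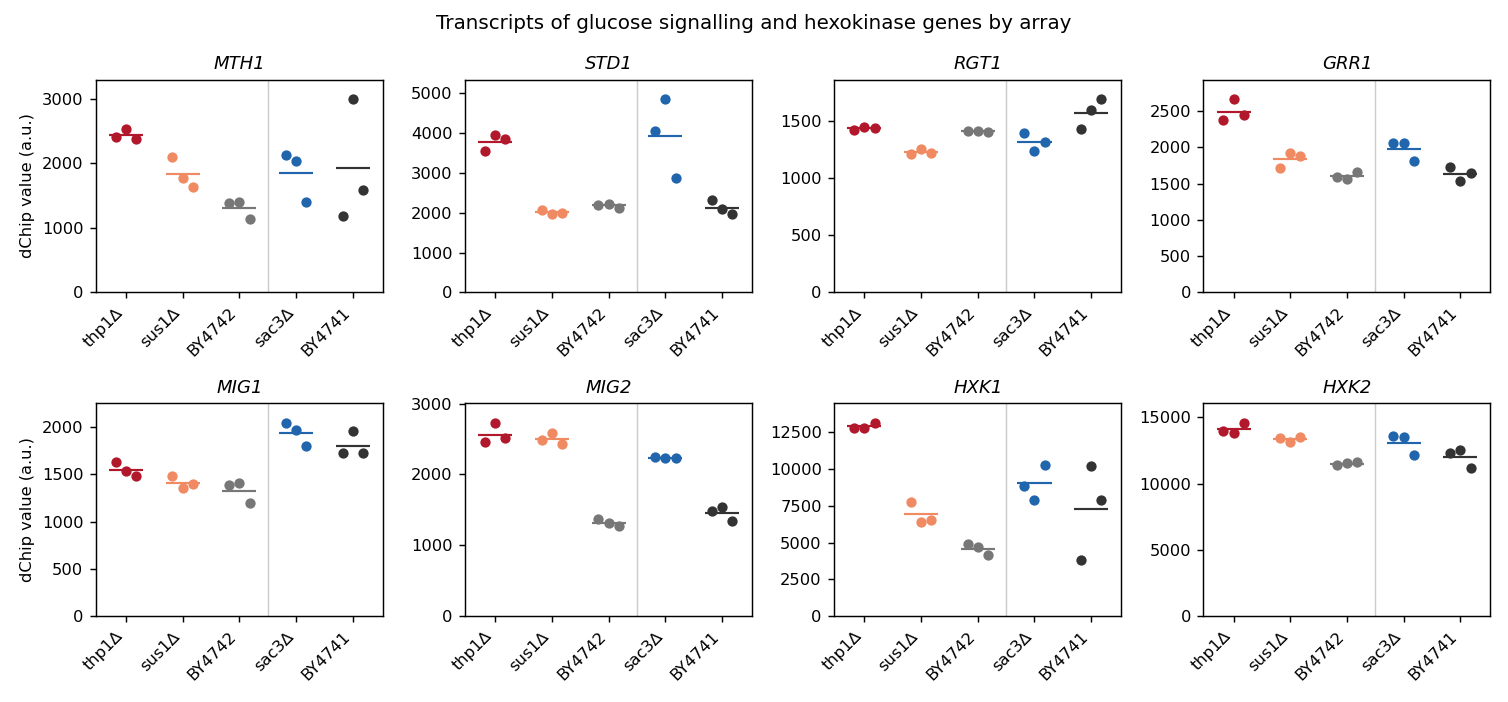
Values on each array (vertical axes from 0, dChip expression value in a.u.) of 8 genes of glucose signalling and hexose phosphorylation, arranged by strain with mutants left of their wild types; bars are strain means (n = 3). MIG2 was higher on every mutant array than on the arrays of its wild type, STD1 was so in thp1∆ and sac3∆, and HXK1 of BY4741 ranged from 3795 to 10239 a.u.

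In the glucose repression pathway through Snf1 and Mig1, a list of 16 genes, 1 rose of 13 tested in thp1∆, 2 of 13 in sac3∆ and 3 of 14 in sus1∆, where 14.9%, 8.84% and 3.46% of all tested genes rose, and 0 fell in each mutant. Leaving out 1 array moved the called genes of this list to between 1 and 2 in thp1∆ and between 1 and 4 in sac3∆ (1 without BY4741 replicate 3, 4 without sac3∆ replicate 2 and 3 without either other sac3∆ array). MIG2, a zinc-finger repressor that acts with Mig1 and is induced by glucose, rose in each mutant: it gave 2452, 2731 and 2510 a.u. in thp1∆ and 2486, 2586 and 2435 a.u. in sus1∆, against 1368, 1320 and 1271 a.u. in BY4742. The log2 fold changes were 0.96 ± 0.06 (limma adjusted p = 6.89e-08) and 0.92 ± 0.06 (adjusted p = 1.11e-06). In sac3∆ MIG2 gave 2248, 2235 and 2228 a.u., against 1488, 1543 and 1347 a.u. in BY4741 (0.62 ± 0.06, adjusted p = 1e-05), a rise that dropped below the fold minimum with equal array medians (0.50), quantile normalisation (0.52) or without BY4741 replicate 3 (0.56).

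The related repressor genes MIG3 and NRG2 rose in sus1∆, by 0.87 ± 0.11 and 0.70 ± 0.08 on the log2 scale, and NRG1, whose product also represses glucose-repressed genes, rose in sac3∆ by 1.22 ± 0.14 (limma adjusted p = 2.11e-05). MIG3 was under the filter in the other mutants, where the fit without the filter gave -0.80 ± 0.11 in sac3∆ (adjusted p = 8.34e-05, past the criteria) and -0.42 ± 0.11 in thp1∆ (adjusted p = 0.00432). NRG1 was also higher in BY4742 than in BY4741, by 0.82 ± 0.14 (adjusted p = 0.00646). MIG1 itself was not called in a mutant, with log2 fold changes of 0.23 ± 0.08 in thp1∆, 0.10 ± 0.08 in sac3∆ and 0.09 ± 0.08 in sus1∆.

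Of 20 genes of hexose phosphorylation and entry into glycolysis, 2 of 19 tested rose in thp1∆, 0 were called in sac3∆, where 2 passed the adjusted p without the fold minimum, and 2 rose in sus1∆, beside the same shares of all genes (14.9% in thp1∆, 8.84% in sac3∆ and 3.46% in sus1∆). HXK1, the hexokinase isozyme that is repressed by glucose, gave 12803, 12773 and 13151 a.u. in thp1∆, against 4894, 4692 and 4136 a.u. in BY4742, a rise of 1.5 ± 0.26 on the log2 scale (limma adjusted p = 0.000252) with no overlap of arrays. In sus1∆ HXK1 gave 7776, 6417 and 6545 a.u., also above every BY4742 array, but was not called. Its log2 fold change in sac3∆ was 0.41 ± 0.26 (adjusted p = 0.205). EMI2, a close relative of the glucokinase gene GLK1, rose by 0.80 ± 0.20 in thp1∆ (adjusted p = 0.00431). GLK1 itself (0.60 ± 0.21, adjusted p = 0.048) and TDH1, an isozyme gene of glyceraldehyde-3-phosphate dehydrogenase (0.59 ± 0.10, adjusted p = 0.000853), were called in sus1∆ at the margin of the criteria. Without any 1 of the 6 arrays GLK1 had an adjusted p between 0.096 and 0.123, and with equal array medians GLK1 (0.52) and TDH1 (0.51) were below the fold minimum, as was TDH1 without BY4742 replicate 3 (0.56) or sus1∆ replicate 1 (0.58). In thp1∆ the same genes were higher by 0.57 ± 0.21 (GLK1, adjusted p = 0.0317) and 0.48 ± 0.10 (TDH1, adjusted p = 0.00107), both below the fold minimum. HXK2, the main hexokinase gene in high glucose, had log2 fold changes of 0.30 ± 0.06 in thp1∆, 0.13 ± 0.06 in sac3∆ and 0.21 ± 0.06 in sus1∆, below the fold minimum.

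Of 25 genes repressed by glucose, 23 were measured and 11 passed the filter in each mutant comparison. In thp1∆ 2 rose (HXK1, above, and CIT2) and 1 fell (ATO3), in sac3∆ 1 rose (MDH2) and 1 fell (ATO3), and in sus1∆ 2 rose (CIT2 and GLK1) and 1 fell (MDH2), where 21.1%, 12.1% and 4.86% of all tested genes were called in thp1∆, sac3∆ and sus1∆. ATO3, which encodes a plasma membrane protein of ammonium export, fell by 1.25 on the log2 scale in thp1∆ and by 0.84 in sac3∆ (limma adjusted p = 1.51e-07 and 1.66e-05). CIT2, the peroxisomal citrate synthase gene, rose by 1.11 ± 0.21 in sus1∆ and by 0.65 ± 0.21 in thp1∆. The thp1∆ value of CIT2 was 0.53 with equal array medians, 0.61 (adjusted p = 0.0525) without BY4742 replicate 3 and 0.60 (adjusted p = 0.0564) without thp1∆ replicate 2. MDH2, cytosolic malate dehydrogenase of gluconeogenesis, rose by 0.81 ± 0.19 in sac3∆ and fell by 0.71 in sus1∆. Its rise was 0.55 without BY4741 replicate 3 and lost its call when fitted to the arrays compared alone (0.81, adjusted p = 0.0617), and its log2 fold change in sus1∆ was -0.66 (adjusted p = 0.0502) without sus1∆ replicate 2.

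Other sugar carriers of the HXT family were mostly under the filter. Of 13 genes 12 were measured, and each of HXT8 to HXT11 and HXT13 to HXT17 with a probe set stayed between 4.85 and 232 a.u. on all arrays. MAL31, a maltose permease gene, was the 1 gene of this list tested in a mutant against its wild type, with a log2 fold change of 0.42 ± 0.27 in sac3∆ (limma adjusted p = 0.214). It was called higher in thp1∆ than in sus1∆, by 1.01 ± 0.24 (adjusted p = 0.00354). Of 12 genes for the endocytosis and turnover of transporters, 8 were tested in thp1∆ and in sac3∆ and 9 in sus1∆. None of these was called in a mutant against its wild type, although 4, 1 and 2 passed the adjusted p without the fold minimum, and leaving out 1 array gave 0 to 1 in each mutant.

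CSR2, an arrestin-related adaptor gene of this list whose product directs hexose carriers to endocytosis, was under the filter in each mutant comparison. It gave 1657, 1633 and 1303 a.u. in thp1∆ and 744, 664 and 689 a.u. in sus1∆, against 401, 390 and 368 a.u. in BY4742, and 650, 655 and 711 a.u. in sac3∆, against 259, 515 and 385 a.u. in BY4741. Every mutant array was above those of its wild type. In the limma fit without the filter CSR2 was higher by 1.98 ± 0.18 in thp1∆ (adjusted p = 1.24e-06), 0.85 ± 0.18 in sac3∆ (adjusted p = 0.00204) and 0.86 ± 0.18 in sus1∆ (adjusted p = 0.00348) on the log2 scale, past the criteria in each. It passed the filter between thp1∆ and sus1∆ and was called higher in thp1∆, by 1.12 ± 0.18 (adjusted p = 0.000194).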

How the data were processed

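The authors hybridised total RNA to Affymetrix yeast arrays and deposited model-based intensity values from dChip (version not given in the sources used here) on a linear scale, after invariant-set normalisation of perfect-match probes. Outliers were left empty by the authors. Of 5900 probe sets, 5498 were assigned to 1 gene by the platform annotation (12 symbols updated through RefSeq gene IDs), and the probe set with the highest mean was kept for the 47 genes with several. Probe sets differ in response, so levels were not compared between genes. Log2 values of all 15 arrays were fitted with limma 3.58.1 in R 4.3.3 (5 strain means), with Benjamini-Hochberg adjustment over the genes kept by the filter. The difference minimum was not applied to contrasts between mutants. The count of arrays, 3 per strain, limits the precision. The fit was tested on simulated data with 1 spread per gene for all strains, which does not cover the unequal spread of the strains.

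Members and gene lists were chosen with earlier results of these data known. From each list, genes called in a mutant (up to 4 per comparison, by size) and RGT1, MTH1, STD1, MIG1 and HXK2 were named. MAL31, CSR2, ADH2, JEN1, ATG15, HIS4 and YHR213W-A were named after their values were seen. Chromosomes and neighbours are from RefSeq annotation. Alternatives were equal array medians, quantile normalisation, no filter, log2(value + 100), only the arrays compared, an unadjusted p, no fold minimum, the lowest probe set of a gene, the replicate number as a block, and leaving out each array.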

Additional observations from a re-analysis of the deposited data

Results flagged for a closer look

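Responses of HXT1 and HXT4 differed between mutants by a test of the difference itself. The HXT1 response was higher in sus1∆ than in sac3∆ by 0.62 on the log2 scale, from 0.19 ± 0.08 in sus1∆ and -0.42 ± 0.08 in sac3∆ (limma adjusted p = 0.00178). The HXT4 response differed by -0.97, from -0.50 ± 0.19 in sus1∆ and 0.47 ± 0.19 in sac3∆ (adjusted p = 0.0143). HXT4 was also higher in thp1∆ than in sus1∆, by 0.76 (adjusted p = 0.00414), with log2 fold changes of 0.26 ± 0.19 and -0.50 ± 0.19 against BY4742.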

How the results depend on the processing

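Of 912 values of a member's log2 fold change under an alternative, 858 kept their direction and their side of the criteria, 16 newly passed, 3 no longer passed and 35 changed sign. Several alternatives leave a member's log2 fold change as it was by construction. They are no filter, no fold minimum, an unadjusted p, only the arrays compared, the replicate block and the lowest probe set. The count of 858 is therefore no measure of how firm the directions were. Counts of members called changed as follows. Without the filter on low values 1 was called in thp1∆ and 1 in sac3∆ (HXT5 in both), 2 between thp1∆ and sus1∆ (HXT4 and HXT5), and 3 between the sus1∆ and sac3∆ responses (HXT1, HXT4 and HXT5). Without the fold minimum 1 was called in thp1∆ and 1 in sus1∆ (HXT3 in both), 2 in sac3∆ (HXT1 and RGT2) and 1 between the thp1∆ and sac3∆ responses (HXT1). Without that minimum 61.8%, 44.7% and 29.4% of all tested genes were called in thp1∆, sac3∆ and sus1∆. Leaving out each array in turn gave 0 to 1 in sac3∆, 0 to 2 in sus1∆, 0 to 1 between the wild types, 0 to 1 between the thp1∆ and sac3∆ responses, 1 to 2 between the sus1∆ and sac3∆ responses and 1 to 2 between thp1∆ and sus1∆. In thp1∆ against BY4742 it gave 0 throughout.

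Signs turned for small values. With array medians made equal, thp1∆ gave -0.063 (HXT1), -0.092 (HXT7) and -0.010 (SNF3), sac3∆ gave -0.062 (HXT3), -0.027 (HXT2) and -0.045 (HXT7), and sus1∆ gave -0.073 (HXT2). With quantile normalisation, thp1∆ gave -0.096 (HXT1) and -0.11 (HXT7), sac3∆ gave -0.075 (HXT3), -0.024 (HXT2) and -0.072 (HXT7), sus1∆ gave -0.040 (HXT2) and BY4742 against BY4741 gave -0.062 (HXT3). Leaving out each array, the log2 fold change of HXT7 lay between -0.091 and 0.11 in thp1∆, and in sac3∆ HXT7 lay between -0.17 and 0.37, SNF3 between -0.14 and 0.10, HXT2 between -0.20 and 0.39 and HXT3 between -0.0033 and 0.13. HXT2 in sus1∆ lay between -0.020 and 0.030, and between the wild types SNF3 lay between -0.20 and 0.048 and HXT3 between -0.0050 and 0.11. Between responses, HXT7 (thp1∆ and sac3∆) lay between -0.34 and 0.20 and HXT2 (sus1∆ and sac3∆) between -0.39 and 0.21, and RGT2 between thp1∆ and sus1∆ lay between -0.054 and 0.020. The causes were not tested.

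Deviations of mutant and wild-type arrays with the same replicate number correlated across genes at -0.23 to -0.07 in thp1∆, 0.07 to 0.36 in sac3∆ and 0.09 to 0.38 in sus1∆. Between the wild types they correlated at -0.22 to -0.10. Arrays with different numbers correlated at -0.40 to 0.34 over the same comparisons. The sign for equal numbers differed between comparisons, and the numbers were not taken to pair samples. With the replicate number as a block, members called stayed at 0 in each mutant. As every strain had an array of each number, the block could change only the SE and p of a member, not its log2 fold change. The limma adjusted p was 0.00196 for HXT1 in sac3∆ (-0.42) and 0.0064 for HXT4 between thp1∆ and sus1∆ (0.76).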

Other observations

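Among glucose-repressed genes below the filter, ADH2, the alcohol dehydrogenase gene of ethanol use, gave 95, 101 and 108 a.u. in thp1∆, against 226, 232 and 232 a.u. in BY4742, and 99, 109 and 143 a.u. in sac3∆, against 252, 337 and 280 a.u. in BY4741. These ranges did not overlap. In the limma fit without the filter its log2 fold changes were -1.19 ± 0.12 (adjusted p = 3.84e-06) and -1.32 ± 0.12 (adjusted p = 6.09e-06), and in sus1∆ -0.60 ± 0.12 (adjusted p = 0.00312). JEN1, a lactate and pyruvate carrier gene, had -0.86 ± 0.17 in thp1∆, -0.62 ± 0.17 in sac3∆ and -0.59 ± 0.17 in sus1∆ in the same fit. There, of 23 glucose-repressed genes, 2 were called higher and 3 lower in thp1∆, 1 and 5 in sac3∆, and 2 and 2 in sus1∆. Of all genes 22.9%, 13.0% and 5.99% were called. ICL1 and IDP2, also under the filter, were higher in thp1∆ by 0.30 and 0.23 (adjusted p = 0.0315 and 0.00945), below the fold minimum. MAL31 gave 1141, 1244 and 1394 a.u. in thp1∆, against 549, 583 and 525 a.u. in BY4742 (1.19 ± 0.24, adjusted p = 0.000949).

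Over the means of the 5 strains, the genes closest in pattern to HXT5 among 5441 others were ATG15, a vacuolar lipase gene of autophagy (root-mean-square difference of centred log2 means 0.08), HIS4, a histidine biosynthesis gene (0.13), and YHR213W-A (0.15). HIS4 averaged 1848 a.u. in thp1∆ and 4949 a.u. in sus1∆, against 6274 a.u. in BY4742, and 2480 a.u. in sac3∆, against 4557 a.u. in BY4741 (geometric means). These genes were picked after their values were seen, over 5 points that share the array normalisation.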
